A study of Mus musculus with 13 samples.

Results

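p53, encoded in the mouse by *Trp53*, is a transcription factor that binds DNA and switches on genes for growth arrest, repair and cell death. The genes described here are *Trp53* and 9 of its best known targets, *Cdkn1a*, *Mdm2*, *Ccng1*, *Aen*, *Sesn1*, *Plk2*, *Trp53inp1*, *Btg2* and *Gadd45a*. They were chosen by name, for their known place in the p53 pathway. All 10 were among the 13222 genes of the deposited table, and all 10 were among the 12319 genes tested.

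The 13 libraries came from 4T1-Thy1.1 cells, a subline of the 4T1 mammary carcinoma line of BALB/c mice that carries a Thy1.1 transgene. Untreated cells (control, n = 3), cells given 200 ng/mL doxorubicin (DOX, n = 4), cells given 200 ng/mL doxorubicin and 25 ng/mL recombinant mouse IL-17A (DOX+IL-17A, n = 3) and cells given 25 ng/mL IL-17A (IL-17A, n = 3) were harvested after 48 hours. All libraries come from this 1 cell line in culture, without a host, so other cell types of a tumor were not part of the model. The labels do not say whether replicates were separate cultures or wells of the same day, and p-values then measure only the spread between these libraries, which may be technical.

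Doxorubicin is an anthracycline that blocks topoisomerase II and breaks DNA. In cells with working p53, DNA breaks activate the kinases ATM and ATR, p53 is freed from the ubiquitin ligase MDM2, and its targets are transcribed. The targets include MDM2 itself, which closes a feedback loop. IL-17A is a cytokine of T cells that signals through its receptor to NF-kB and to factors that stabilize mRNA. The 4T1 line is widely described as lacking functional p53 protein. The reads came from the 3′ ends of transcripts, so they count *Trp53* mRNA and show neither its coding sequence nor its protein.

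The DNA ahead of the genes was read first, since p53 acts through a 10 base consensus, here called the p53 decamer. A complete response element holds 2 decamers, here no more than 13 bases apart. RefSeq promoter windows of the GRCm38.p6 build (equal to mm10 in coordinates), each with 250 bases before and 50 bases after a transcription start, were searched on both strands for exact matches. Windows were found for 9 of the 10 genes, 12 windows in all, and *Trp53inp1* had none in the tables used here. Windows of *Trp53*, *Cdkn1a*, *Mdm2* and *Aen* are shown as examples of those that hold a decamer, in capitals. That of *Plk2* is shown because this strongly changed gene held none. Each runs 5′ to 3′ along its gene.

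Trp53 (chr11:69580109-69580408, + strand): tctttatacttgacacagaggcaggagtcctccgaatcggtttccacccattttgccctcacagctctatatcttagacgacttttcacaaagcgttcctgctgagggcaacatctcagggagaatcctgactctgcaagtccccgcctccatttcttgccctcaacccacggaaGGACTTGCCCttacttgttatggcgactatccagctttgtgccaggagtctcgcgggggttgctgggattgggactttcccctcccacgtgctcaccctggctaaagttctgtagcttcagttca
Cdkn1a (chr17:29090729-29091028, + strand): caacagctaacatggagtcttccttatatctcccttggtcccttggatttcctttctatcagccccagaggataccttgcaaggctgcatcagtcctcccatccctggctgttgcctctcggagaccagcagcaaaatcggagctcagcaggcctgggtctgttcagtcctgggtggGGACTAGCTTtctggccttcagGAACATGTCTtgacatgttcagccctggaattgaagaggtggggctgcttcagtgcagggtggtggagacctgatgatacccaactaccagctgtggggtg
Mdm2 (chr10:117710709-117711008, - strand): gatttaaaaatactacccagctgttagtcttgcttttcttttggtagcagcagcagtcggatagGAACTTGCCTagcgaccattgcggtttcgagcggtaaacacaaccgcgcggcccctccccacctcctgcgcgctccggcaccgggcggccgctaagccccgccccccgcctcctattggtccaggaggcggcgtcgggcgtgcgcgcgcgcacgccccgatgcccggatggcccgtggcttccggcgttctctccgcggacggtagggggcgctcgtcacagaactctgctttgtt
Aen (chr7:78895677-78895976, + strand): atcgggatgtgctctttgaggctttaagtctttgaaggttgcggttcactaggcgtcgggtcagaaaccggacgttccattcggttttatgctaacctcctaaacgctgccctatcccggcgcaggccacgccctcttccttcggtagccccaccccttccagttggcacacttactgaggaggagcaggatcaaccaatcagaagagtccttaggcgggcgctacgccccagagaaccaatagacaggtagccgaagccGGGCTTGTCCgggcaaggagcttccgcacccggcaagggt
Plk2 (chr13:110394794-110395093, + strand): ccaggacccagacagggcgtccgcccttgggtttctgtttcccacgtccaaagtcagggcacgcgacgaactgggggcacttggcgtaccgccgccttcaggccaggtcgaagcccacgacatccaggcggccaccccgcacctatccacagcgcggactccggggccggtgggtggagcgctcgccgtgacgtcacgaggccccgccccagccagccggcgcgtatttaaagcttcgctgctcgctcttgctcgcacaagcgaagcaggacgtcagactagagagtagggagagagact

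The *Cdkn1a* window shown was the only one of the 12 with a complete element. By the exact search, this element was formed by GGACTAGCTT, which begins at position -73 from the start site of that window, and GAACATGTCT, which begins at -51. The bases right after GAACATGTCT, tgacatgttc, begin with t where the consensus asks for a purine. An exact search leaves them out, so the pair it reports need not be the one that p53 binds. Among all 32851 promoter windows, 24 (0.0731%) held a complete element. A decamer was present in 8 of the 12 windows, which belong to 7 of the 9 genes, against 8.36% of all windows. The decamers of *Trp53* (GGACTTGCCC) and *Gadd45a* (GGGCTAGCCC) began at -75 and -40, and those of *Mdm2* (GAACTTGCCT) and *Ccng1* (GGGCAAGCCT) at -186 and -185. In *Sesn1* (AAGCTTGTTT) the match began at -173. In the *Aen* window shown, GGGCTTGTCC began at position 11 of the transcript, and the same decamer lay at -121 of a second, overlapping start. No match was found in the windows of *Plk2* and *Btg2*. A further window of *Cdkn1a* (chr17:29093519-29093818) and another of *Sesn1* (chr10:41810324-41810623) also held none. The genes were chosen as known p53 targets, so these shares are descriptions. A match of letters does not show binding, and elements outside the windows were not searched.

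All libraries expressed the 7 listed epithelial markers (*Epcam*, *Krt8*, *Krt18*, *Krt19*, *Cdh1*, *Krt7* and *Cldn4*). Their summed level was 1978 to 2325 TMM-normalized RPM (reads scaled to library size) in the control and 1733 to 2096 in the IL-17A libraries, but 985 to 1095 with DOX and 869 to 1090 with DOX+IL-17A. This fall ran in parallel with the DOX comparisons below, and its part in them was not tested. In bulk RNA, fewer cells of a kind and less RNA per cell cannot be told apart. Of the other lists, 4 of 8 immune markers were in the table. Their sums were 18.6 to 21.3 in the control and 27.1 to 51.3 with DOX. They were 12.5 to 19.6 with DOX+IL-17A and 10.6 to 16.3 with IL-17A. The cause of the higher sums with DOX was not tested. Fibroblast markers, 4 of 6 in the table, had sums of 23.8 to 97.8 over all libraries. Of the liver list, *Alb* alone was in the table, at 0 to 2.25. Both DOX replicate 1 and control replicate 1 stood apart. DOX replicate 1 had a sum of 222 over 7 muscle markers and of 66.5 over 3 red blood cell markers, against at most 30.5 and 14.4 in any other library. Control replicate 1 differed from the other controls by a chi-square per degree of freedom of 177 and 116, against 24.8 between those and at most 94.7 between replicates of any other group. By the same measure IL-17A replicate 5 (94.7 and 62.3, against 16.1 between the others) and DOX+IL-17A replicate 5 (58.0 and 55.3, against 19.9) also differed within their groups. The part of read depth in these values was not tested. The counts of called genes among the 10 were the same with DOX replicate 1 and control replicate 1 left out.

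Levels are given below as TMM-normalized RPM, with 1 read worth 0.0609 to 0.204 RPM. Gene positions are those of the GENCODE annotation of the same build, in which no other gene lay over the 3′ end of any of the 10. Log2 fold changes, with standard errors, come from limma on log2(value + 1), a scale that understates changes of low genes. A gene was called at an adjusted p below 0.05 with more than a 2-fold change. Whether libraries of compared groups overlapped is given for single genes as a description only. The share of all tested genes without overlap was not counted in any comparison.

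DOX against control asks how the cells responded to the drug alone, and 3 of the 10 genes rose, *Plk2*, *Aen* and *Trp53*. None of the 10 fell. Among all tested genes 9.15% rose and 6.18% fell, and the median log2 fold change was 0.70 over the 10 genes and 0.09 over all tested genes. DOX+IL-17A against control gave 4 genes that rose, the same 3 and *Cdkn1a*, and 1 that fell, *Sesn1*, where 6.95% of all genes rose and 5.95% fell. The medians were then 0.69 and 0.04. Both comparisons share the same control libraries.

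**Figure D1:**
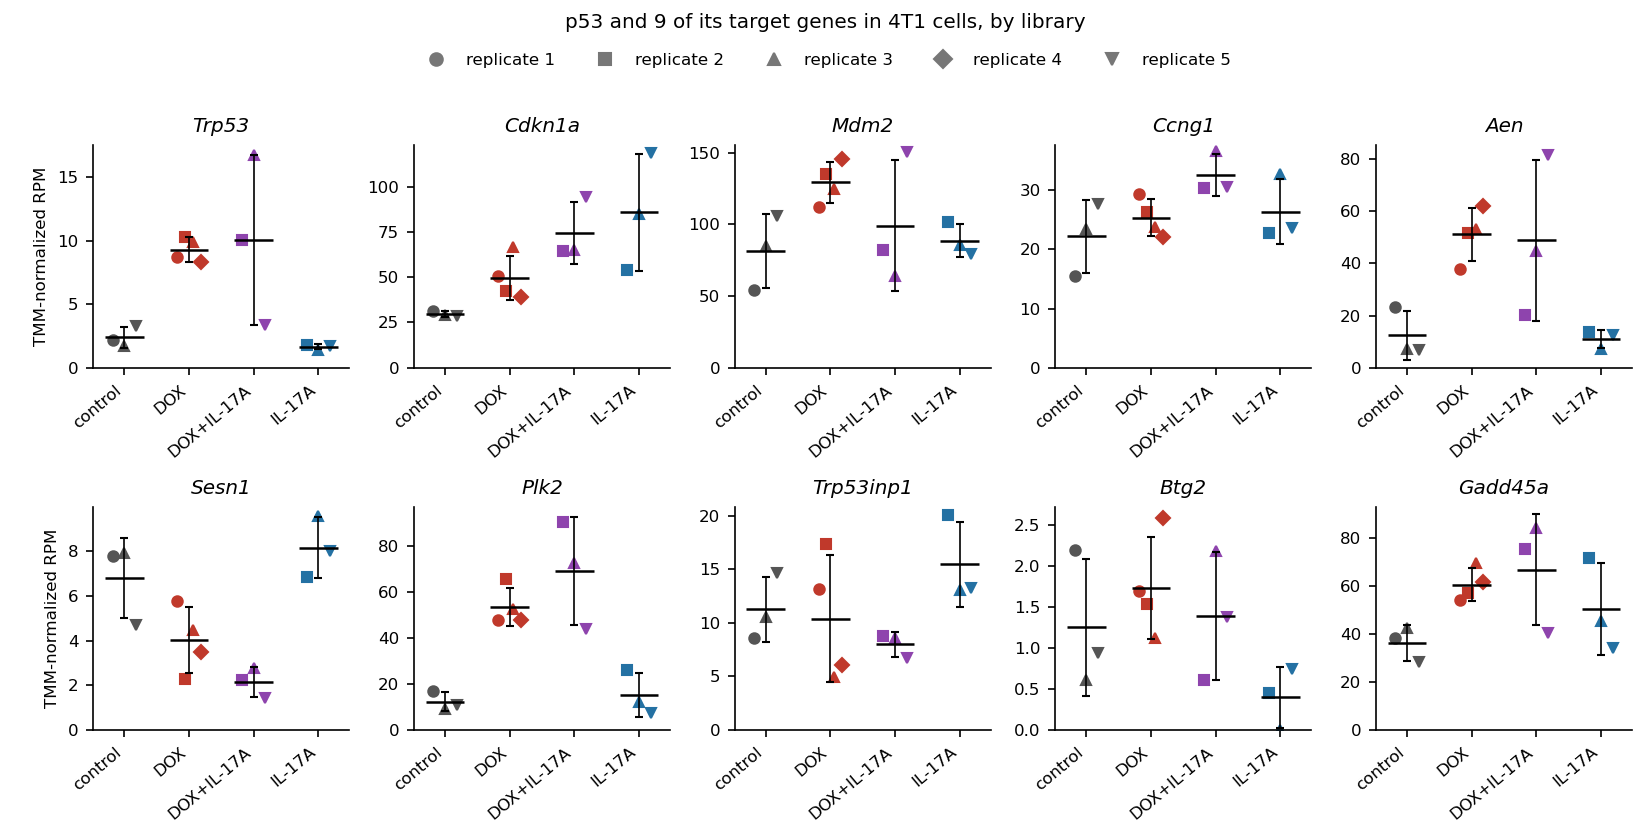
Level of each of the 10 genes in every library (TMM-normalized RPM, linear axis from 0), by treatment, with the mean as a bar and the SD as whiskers (n = 3, 4, 3 and 3) and the replicate number as the symbol. *Plk2* in the 4 DOX libraries lies at 47.8 to 65.6, above all control and IL-17A libraries, while *Cdkn1a* in the IL-17A libraries lies at 54.1 to 119, above the controls at 28.8 to 31.3.

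*Trp53* itself (chr11:69580359-69591873, + strand) stood at 2.20, 1.70 and 3.30 in control replicates 1, 3 and 5. In DOX replicates 1 to 4 it was 8.69, 10.3, 9.93 and 8.32, and in DOX+IL-17A replicates 2, 3 and 5 it was 10.02, 16.8 and 3.37. The IL-17A libraries gave 1.80, 1.41 and 1.72. All 7 libraries with DOX were above all 6 without it, although DOX+IL-17A replicate 5 exceeded the highest control only narrowly. With DOX the mean rose from 2.40 ± 0.817 (SD, n = 3) to 9.31 ± 0.951 (SD, n = 4), and the log2 fold change was 1.62 ± 0.40 (limma, adjusted p = 0.01). Against control, DOX+IL-17A gave 1.51 ± 0.43 (limma, adjusted p = 0.025). That last call rested on single libraries, since the adjusted p of limma was 0.079 without DOX+IL-17A replicate 2, 0.12 without DOX+IL-17A replicate 3 and 0.067 without control replicate 3. Read counts for *Trp53* were small, 9 to 169 a library. A processed pseudogene named *Trp53-ps* is annotated in the genome, and how reads shared with it were counted is not given in the sources used here.

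Of the feedback genes, *Mdm2* (chr10:117688875-117710758, - strand), the ligase that ubiquitinates p53, was 54.3, 85.2 and 105 in the controls and 112, 135, 125 and 145 with DOX. The DOX libraries did not overlap the controls, and the log2 fold change of 0.70 ± 0.27 missed the threshold (limma, adjusted p = 0.078). With DOX+IL-17A it was 81.8, 64.2 and 151, a range that spanned nearly the whole of the other libraries, and with IL-17A it was 101.4, 85.5 and 79.1. *Ccng1* (chr11:40748552-40755311, - strand), cyclin G1, which brings a phosphatase to MDM2, was 15.6, 23.5 and 27.7 in the controls and 29.4, 26.4, 23.8 and 22.1 with DOX. These overlapped, with a log2 fold change of 0.21 ± 0.25 (limma, adjusted p = 0.56). The DOX+IL-17A libraries were at 30.5, 36.6 and 30.6, above every control and every DOX library, and the log2 fold change against control was 0.56 ± 0.26 (limma, adjusted p = 0.15). In the IL-17A libraries *Ccng1* was 22.9, 32.7 and 23.6.

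Among the genes of growth arrest, *Cdkn1a* (chr17:29090976-29100727, + strand), which encodes the cyclin-dependent kinase inhibitor p21, was tightly grouped in the controls at 31.3, 29.0 and 28.8. It was 50.7, 42.5, 66.5 and 38.9 with DOX. It reached 64.6, 64.8 and 94.3 with DOX+IL-17A and 54.1, 85.0 and 119 with IL-17A. Every treated library was above every control, and the order of the means was IL-17A, DOX+IL-17A, DOX and control, of which DOX and control alone among neighbours did not overlap. The log2 fold change against control was 0.69 ± 0.27 with DOX (limma, adjusted p = 0.073) and 1.28 ± 0.28 with DOX+IL-17A (limma, adjusted p = 0.0071), the latter called in all 13 fits that left out 1 library.

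*Plk2* (chr13:110395046-110400844, + strand), a polo-like kinase of the G1 and S phases, was 16.9, 8.89 and 10.96 in the controls. DOX libraries gave 47.8, 65.6, 52.8 and 47.8, and DOX+IL-17A libraries 90.8, 72.9 and 43.9. With IL-17A it was 26.0, 12.1 and 7.55. Libraries with and without DOX did not overlap. The log2 fold change was 2.07 ± 0.36 with DOX (limma, adjusted p = 0.0011) and 2.39 ± 0.38 with DOX+IL-17A (limma, adjusted p = 0.00094), and both calls held in all 13 fits that left out 1 library. This was the largest change of the 10 genes with DOX+IL-17A, in a gene whose promoter window held no decamer.

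*Gadd45a* (chr6:67035096-67037457, - strand), which acts in stress kinase signalling and DNA repair, was 38.1, 42.4 and 28.1 in the controls and 54.1, 56.8, 69.5 and 61.4 with DOX. These groups did not overlap, and the log2 fold change was 0.74 ± 0.29 (limma, adjusted p = 0.075). With DOX+IL-17A it was 75.3, 84.2 and 40.5, with a log2 fold change of 0.82 ± 0.31 (limma, adjusted p = 0.076). Replicate 5, the lowest, decided this value, which was 1.14 without it (limma, adjusted p = 0.021). IL-17A libraries were at 71.4, 45.3 and 34.0. *Btg2* (chr1:134075170-134079120, - strand), an antiproliferative protein that recruits deadenylases, was near the detection limit, with 0 to 29 reads a library. It was 0.609 to 2.20 in the controls, 1.12 to 2.59 with DOX, 0.613 to 2.18 with DOX+IL-17A and 0 to 0.738 with IL-17A. The library at 0, IL-17A replicate 3, allows a level of up to 0.472, the worth of 3 reads, which covers counting error only. *Btg2* was not called in any comparison, and its log2 fold change with DOX was 0.32, with a 95% interval of -0.47 to 1.103 (limma).

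Of the genes tied to cell death and stress, *Aen* (chr7:78895854-78911209, + strand), a nuclease that degrades DNA in apoptosis, was 23.3, 7.12 and 6.72 in the controls. The 4 DOX libraries were at 37.7, 51.7, 52.99 and 62.0, all above the controls. DOX+IL-17A libraries were widely spread at 20.0, 44.7 and 81.4, so that the lowest fell under control replicate 1, and IL-17A libraries were at 13.5, 7.23 and 12.5. *Aen* rose with DOX by 2.16 ± 0.45 on the log2 scale (limma, adjusted p = 0.0039), in all 13 fits that left out 1 library. With DOX+IL-17A the log2 fold change was 1.90 ± 0.48 (limma, adjusted p = 0.014), and this call was lost without DOX+IL-17A replicate 5 or without control replicate 5 (limma, adjusted p = 0.062 in both).

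*Sesn1* (chr10:41809935-41908424, + strand), a sestrin that restrains mTORC1 signalling and oxidative stress, moved the other way. It was 7.78, 7.92 and 4.71 in the controls and 5.79, 2.30, 4.47 and 3.49 with DOX. It was 2.25, 2.78 and 1.44 with DOX+IL-17A and 6.87, 9.59 and 8.04 with IL-17A. DOX and control libraries overlapped, with a log2 fold change of -0.66 ± 0.34 (limma, adjusted p = 0.17), whereas the highest DOX+IL-17A library was below the lowest control, at -1.301 ± 0.36 (limma, adjusted p = 0.022). The adjusted p of limma was 0.067 without DOX+IL-17A replicate 5 and 0.063 without control replicate 3. *Trp53inp1* (chr4:11156431-11174379, + strand), a stress protein of autophagy and cell death, was 8.63, 10.5 and 14.6 in the controls and 13.2, 17.4, 4.89 and 6.08 with DOX. Values were 8.79, 8.54 and 6.68 with DOX+IL-17A and 20.1, 13.05 and 13.3 with IL-17A. The 4 DOX libraries fell into a high pair and a low pair, the latter below all controls, and the log2 fold change was -0.23 ± 0.38 (limma, adjusted p = 0.69).

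Within DOX+IL-17A, replicate 5 was lowest of the 3 for *Trp53*, *Plk2*, *Gadd45a*, *Sesn1* and *Trp53inp1*, and highest for *Cdkn1a*, *Mdm2* and *Aen*. The 10 genes therefore did not move as a block among these libraries. It was also the deepest of the 3 at 16152120 reads on listed genes, against 9077387 in replicate 3 and 4445592 in replicate 2, and the part of depth in this was not tested.

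**Figure D2:**
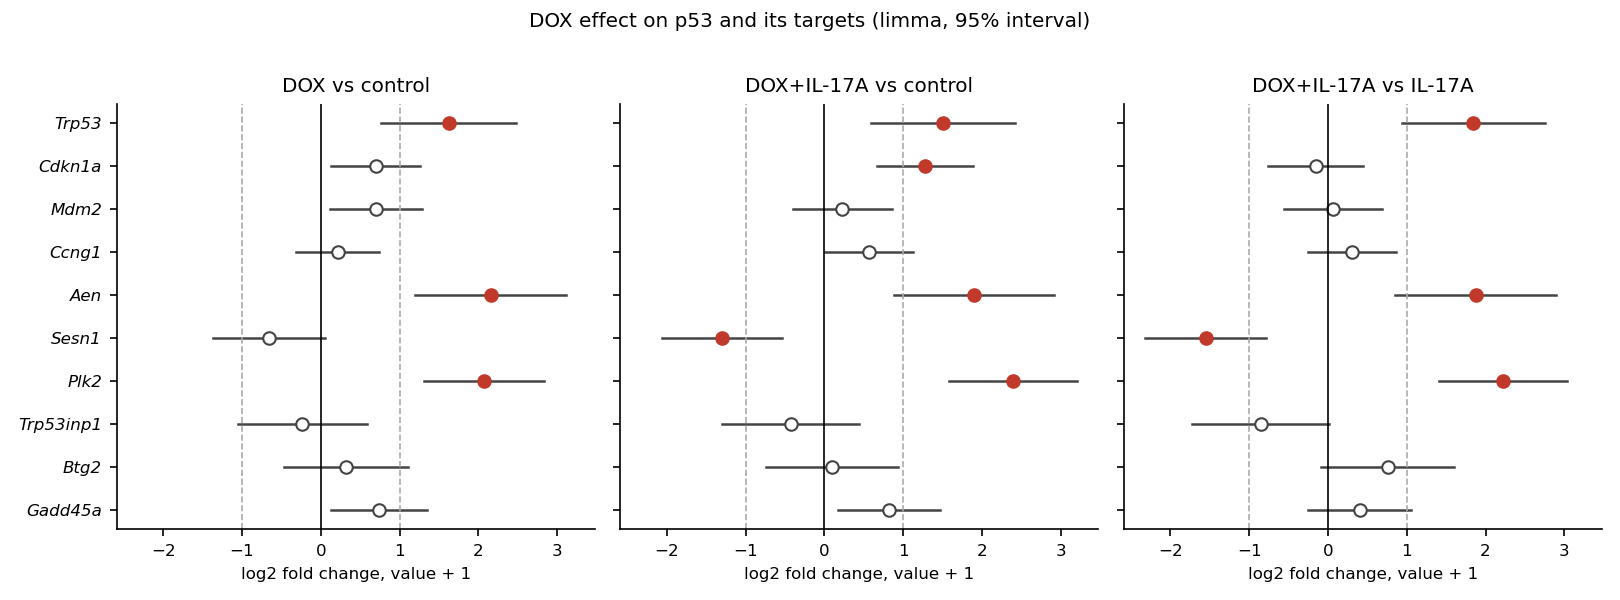
Log2 fold change of value + 1 (points) with its 95% interval (lines) from limma for DOX against control, DOX+IL-17A against control and DOX+IL-17A against IL-17A. Filled points were called, dashed lines mark a 2-fold change, and *Plk2*, *Aen* and *Trp53* are filled in all 3 panels, with *Sesn1* filled on the left of 0 in the middle and right panels.

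DOX+IL-17A against IL-17A asks for the effect of DOX in cells that also had IL-17A. *Plk2* rose by 2.22 ± 0.38, *Aen* by 1.87 ± 0.48 and *Trp53* by 1.85 ± 0.43 on the log2 scale, and *Sesn1* changed by -1.55 ± 0.36 (limma, adjusted p = 0.0024, 0.019, 0.012 and 0.012). These 3 genes up and 1 down compare with 4.92% of all genes up and 4.92% down. *Cdkn1a* differed by -0.15 ± 0.28 (limma, adjusted p = 0.77), with overlapping libraries. The *Plk2* call held whichever library was left out. Without DOX+IL-17A replicate 3, 1 gene was left among those that rose, as the adjusted p of limma became 0.056 for *Trp53* and 0.062 for *Aen*. The *Aen* call was also lost without DOX+IL-17A replicate 5 (limma, adjusted p = 0.078) and without IL-17A replicate 3 (limma, adjusted p = 0.085), and the *Sesn1* call without IL-17A replicate 3 (limma, adjusted p = 0.055).

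IL-17A against control asks for the effect of the cytokine alone, and DOX+IL-17A against DOX for its effect on treated cells. None of the 10 genes was called in either. *Cdkn1a* came nearest with IL-17A alone. Its mean was 85.9 ± 32.2 (SD, n = 3) against 29.7 ± 1.40 (SD, n = 3), a ratio of 2.89, without overlap of the libraries. The log2 fold change was 1.43 ± 0.28 with an unadjusted p of 0.00013 and an adjusted p of 0.25 in limma. By DESeq2 the adjusted p was 0.0037, and over all other alternatives it was 0.12 to 1. Of all tested genes 0.00812% rose (1 gene) and 0% fell by limma, with 380 genes at an unadjusted p below 0.05. DESeq2 called 13 genes in this comparison and edgeR 0. The other 9 genes had log2 fold changes of -0.66 (*Btg2*) to 0.43 (*Trp53inp1*), each with overlapping libraries.

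For DOX+IL-17A against DOX, 0.114% of all tested genes rose and 0.325% fell. The limma differences of the 10 genes were modest, and their 95% intervals leave room for changes of either sign for most of them. For *Trp53* the log2 difference was -0.11 (-0.97 to 0.74), for *Aen* -0.26 (-1.21 to 0.70) and for *Plk2* 0.32 (-0.44 to 1.08). For *Mdm2* it was -0.47 (-1.05 to 0.11) and for *Sesn1* -0.64 (-1.36 to 0.07). *Cdkn1a* was the 1 gene of the 10 with an interval that left out 0, at 0.58 (0.02 to 1.15), with an unadjusted p of 0.044 and an adjusted p of 0.76. Of the 12319 tested genes, 782 had an unadjusted p below 0.05 in limma. *Ccng1* was at 0.35 (-0.17 to 0.87, limma, adjusted p = 0.98). It was the 1 gene of the 10 whose libraries did not overlap (exact permutation test, p = 0.0571). How many of all tested genes had no overlap was not counted, so this is a description only. The median over the 10 genes was -0.15, and -0.03 over all tested genes.

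Whether IL-17A acted differently with DOX present was tested as the difference between its 2 effects. No gene of the 10 passed, and 0% of all tested genes did by limma, voom or edgeR, with 556 genes at an unadjusted p below 0.05 and 18 called by DESeq2. Of the 10 genes only *Cdkn1a* had an unadjusted p below 0.05, with a difference of -0.85 (95% interval -1.68 to -0.02, limma, adjusted p = 0.9), its log2 fold change with IL-17A being 0.58 in the presence of DOX and 1.43 without it.

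**Figure D3:**
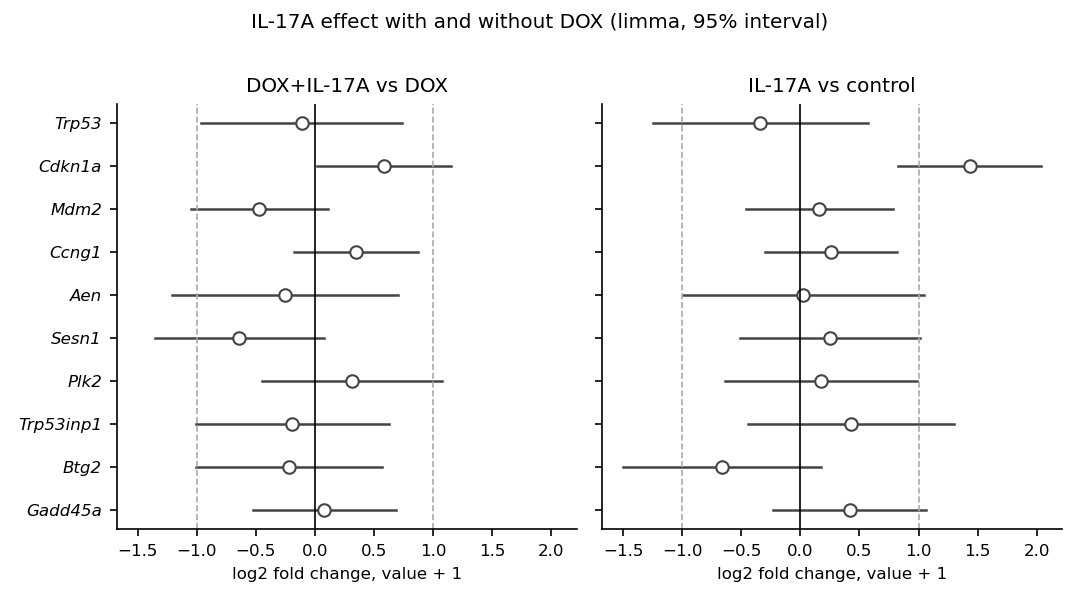
Log2 fold change of value + 1 (points) with its 95% interval (lines) from limma for IL-17A added to DOX and for IL-17A alone. No point is filled, since no gene was called, and *Cdkn1a* alone lies to the right of 1 with IL-17A against control, at 1.43.

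Wider lists of the pathway were examined in the same fits. Of 20 regulators of p53, 16 were tested and none was called in DOX or DOX+IL-17A against control, with median log2 fold changes of -0.09 and -0.23. The medians of all tested genes were 0.09 and 0.04. Of these genes 9.15% rose and 6.18% fell with DOX, and 6.95% and 5.95% with DOX+IL-17A. Without control replicate 1 and DOX replicate 1 the medians of the regulators were -0.17 and -0.33. The damage kinase *Atr* was then called lower with DOX+IL-17A, at -1.15 (limma, adjusted p = 0.023). It was 1 of the 16, near the 6.56% of all tested genes that fell there. *Mdm4*, a relative of MDM2 that masks p53, was at -0.46 ± 0.27 and *Ppm1d*, the phosphatase that ends the damage signal, at 0.74 ± 0.38 with DOX (limma, adjusted p = 0.22 and 0.17). The ubiquitin ligase *Cop1* (-0.97) and the acetyltransferase *Crebbp* (-0.69) were below 2-fold at adjusted p = 0.0018 and 0.024 in limma.

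Of 59 other p53 targets, 50 were tested. With DOX 10 rose and 3 fell, with a median log2 fold change of 0.41, and with DOX+IL-17A 9 rose and 4 fell, with a median of 0.23. Of the list, 20% rose and 6% fell with DOX, against 9.15% and 6.18% of all tested genes, and 18% and 8% with DOX+IL-17A, against 6.95% and 5.95%. The medians of all tested genes were 0.09 and 0.04. Without the pair of libraries that stood apart these became 6 and 4 (median 0.13) and 9 and 3 (median 0.08), and leaving out control replicate 1 alone also gave 6 that rose with DOX. Of all tested genes 7.29% then rose and 5.86% fell with DOX. The share of the list that fell with DOX lay near that of all tested genes.

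Of the 7 tested targets that act in the cell cycle, 2 rose with DOX (28.6%, against 9.15% of all tested genes). *Plk3*, a kinase related to *Plk2*, went from 3.92 ± 1.98 (SD, n = 3) in the controls under DOX to 18.0 ± 5.21 (SD, n = 4), which is a log2 fold change of 2.0 ± 0.38 (limma, adjusted p = 0.0022). *Pml*, which forms nuclear bodies, changed by 1.04 ± 0.23 (limma, adjusted p = 0.006). *Plk3* rose with DOX+IL-17A too, by 2.16 on the log2 scale, and *Fbxw7*, a ubiquitin ligase subunit that degrades cyclin E, fell there by 1.05 on the log2 scale (limma, adjusted p = 0.0088).

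Of 13 tested targets in apoptosis, 4 rose (30.8%, against 9.15% of all tested genes) and none fell with DOX. They were *Bid*, which links death receptors to mitochondria (2.10 ± 0.62, limma, adjusted p = 0.025), the death receptors *Fas* (1.48 ± 0.33, limma, adjusted p = 0.0062) and *Tnfrsf10b* (1.16, limma, adjusted p = 0.014), and *Triap1*, an inhibitor of apoptosis (1.202 ± 0.31, limma, adjusted p = 0.013). The names thus include a gene that opposes cell death. Of these, *Fas*, *Tnfrsf10b* and *Triap1* were called with DOX+IL-17A (23.1% of the 13, against 6.95% of all tested genes). The *Bid* call with DOX held in 9 of the 13 fits that left out 1 library and was lost with voom (adjusted p = 0.056). Its mean was 116 ± 34.8 with DOX (SD, n = 4) and 105 ± 78.9 with IL-17A alone (SD, n = 3), against 29.0 ± 19.0 in the controls (SD, n = 3). Without control replicate 1 and DOX replicate 1, 1 of the 13 rose with DOX and 2 (*Fas* and *Zmat3*) with DOX+IL-17A. Of all tested genes 7.29% and 6.85% then rose, so the DOX count lay near the share of all genes. The *Triap1* change with DOX was 0.77 (limma, adjusted p = 0.038) without control replicate 1 alone. *Bax* and *Bbc3*, which permeabilize mitochondria, were not called, at 0.43 ± 0.53 and -0.09 ± 0.35 with DOX (limma, adjusted p = 0.58 and 0.88), and neither were *Zmat3* (0.38 ± 0.32) or *Phlda3* (-0.42 ± 0.33).

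Of 6 tested DNA repair targets none was called with DOX. *Xpc*, which recognizes damaged DNA, was at -0.31 ± 0.27 (limma, adjusted p = 0.44). *Rrm2b*, a ribonucleotide reductase subunit, was at 0.91 with DOX (limma, adjusted p = 0.044), under 2-fold, and rose by 1.34 on the log2 scale with DOX+IL-17A (limma, adjusted p = 0.012).

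Of 13 tested targets in metabolism and autophagy, DOX raised 3 and lowered 2, and DOX+IL-17A raised 3 and lowered 3. Of this list 23.1% rose and 15.4% fell with DOX, against 9.15% and 6.18% of all tested genes. With DOX+IL-17A 23.1% rose and 23.1% fell, against 6.95% and 5.95%. Without control replicate 1 and DOX replicate 1, DOX+IL-17A raised 4 and lowered 1. *Tigar*, a phosphatase that lowers glycolysis, went from 8.84 ± 5.11 (SD, n = 3) to 34.0 ± 4.41 (SD, n = 4), by 1.94 ± 0.30 on the log2 scale (limma, adjusted p = 0.00063). *Sesn2*, the relative of *Sesn1*, rose by 1.56 ± 0.35 (limma, adjusted p = 0.0064), from the low level of 0.615 ± 0.502 (SD, n = 3) to 3.75 ± 1.299 (SD, n = 4), while *Sesn1* itself did not rise in any comparison with control. *Prkab1*, a subunit of AMP-activated kinase, rose by 1.12. *Lpin1*, an enzyme of lipid synthesis, fell by 1.67 on the log2 scale (limma, adjusted p = 0.021). With DOX+IL-17A it fell by 1.57 (limma, adjusted p = 0.044), a call that held in 5 of the 13 fits without 1 library and was lost by edgeR (adjusted p = 0.073). With DOX *Ddit4*, an inhibitor of mTORC1, fell by 1.54 (limma, adjusted p = 0.013). *Fdxr*, a mitochondrial reductase, was called lower with DOX+IL-17A, at -1.32 (limma, adjusted p = 0.049). In the last group of 11 tested targets, *Cgref1* fell by 1.25 on the log2 scale (limma, adjusted p = 0.046), and that call held in 5 of the 13 fits that left out 1 library.

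Relatives of the 10 genes were listed as well. Of 17 tested, 7 rose with DOX and none fell, and 4 rose with DOX+IL-17A, with medians of 0.61 and 0.63. Of the relatives 41.2% rose with DOX and 23.5% with DOX+IL-17A, against 9.15% and 6.95% of all tested genes, whose medians were 0.09 and 0.04. Without control replicate 1 and DOX replicate 1 these were 4 up and 1 down (median 0.23), and 2 up and 2 down (median 0.35). *Gadd45g*, a relative of *Gadd45a*, went from 7.75 ± 2.17 (SD, n = 3) to 42.8 ± 18.4 with DOX (SD, n = 4), by 2.25 ± 0.33 on the log2 scale (limma, adjusted p = 0.00034), and to 17.6 ± 2.64 with DOX+IL-17A (SD, n = 3). The others that rose with DOX were *Plk3*, *Sesn2*, *Gadd45b* (1.15), the antiproliferative *Btg3* (1.17), and *Isg20* (1.24) and *Isg20l2* (1.28), exonucleases related to *Aen*.

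Cell cycle genes that p21 represses through the DREAM complex were also listed. Of 12 tested none was called in DOX or DOX+IL-17A against control, and the medians were 0.64 and 0.68, against 0.09 and 0.04 over all tested genes. Without control replicate 1 and DOX replicate 1 the medians of the list were 0.40 and 0.29. *Mybl2*, a transcription factor of the cell cycle, was then called higher in both, at 1.15 and 1.21 (limma, adjusted p = 0.012 and 0.0095). It was 1 of the 12, where 7.29% of all tested genes rose with DOX and 6.85% with DOX+IL-17A. *Birc5* (0.97), *Aurka* (0.92) and *Foxm1* (0.77) were higher with DOX at adjusted p = 0.0061, 0.011 and 0.0095 in limma, under 2-fold.

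Of the 91 tested genes on these lists, limma and edgeR called none in DOX+IL-17A against DOX, with 5 at an unadjusted p below 0.05 in each. DESeq2 called *Gadd45g* and *Isg20*, both lower with DOX+IL-17A, at -1.26 and -1.78 on the log2 scale (adjusted p = 0.040 and 0.0052), where limma gave -1.15 and -1.83 (adjusted p = 0.25 and 0.084). In limma *Isg20* was called without control replicate 1, without control replicate 3, without both libraries that stood apart and with only the groups compared (adjusted p = 0.0084, 0.014, 0.0079 and 0.0061). In IL-17A against control limma and edgeR again called none of the 91, with 7 and 6 at an unadjusted p below 0.05. DESeq2 called *Thbs1*, an extracellular matrix glycoprotein, at -1.39 (adjusted p = 0.046), against an adjusted p of 0.65 in limma. *Atr*, *Mybl2*, *Isg20* and *Thbs1* are named here because of these calls, after their values were seen.

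**Figure D4:**
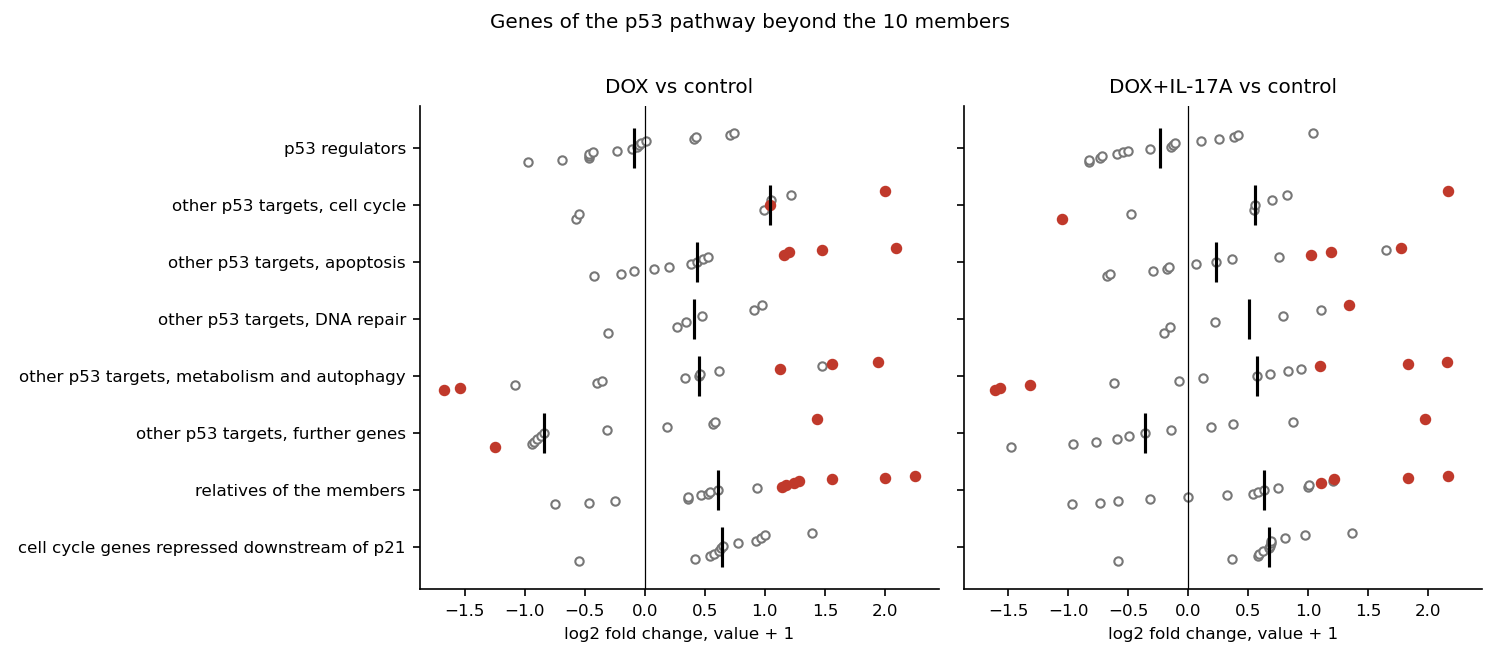
Log2 fold change of value + 1 (limma) for each tested gene of the p53 pathway lists, with DOX and DOX+IL-17A against control. Filled points were called, vertical bars are list medians, and genes of the same list lie on both sides of 0, from *Lpin1* at -1.67 to *Tigar* at 1.94 among the metabolic targets with DOX.

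For 4 of the genes the tested genes with the most similar log2(value + 1) over the 13 libraries were looked up, as a description, since the libraries share treatments and depth. Nearest to *Trp53* were *Tspan2* (Pearson r = 0.960), *Tiparp* (0.957) and *Esco2* (0.956), all higher in the DOX and DOX+IL-17A means. Nearest to *Cdkn1a* were *Slc39a4* (0.863), *P2ry6* (0.846) and *Cpne5* (0.816), each with its 2 highest means in the IL-17A and DOX+IL-17A libraries. *Mdm2* was nearest to *Trnp1* (0.927), *Sfxn5* (0.921) and *Chchd7* (0.901), and *Ccng1* to *Alcam* (0.894), *Stc1* (0.871) and *Rab3ip* (0.845).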

How the data were processed

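Poly(A) RNA of 4T1-Thy1.1 cells was sequenced in 13 libraries from its 3′ ends as single 75 base reads. The authors aligned reads to mm10 with STAR, counted them with featureCounts (strand setting not given in the sources used here), applied TMM and ran voom with limma. What they deposited is a signal table of TMM-normalized RPM (reads scaled to library size) for 13223 entries. An identical second entry was dropped, and 17 names stored as dates were left as they stood. Every column was assigned to a sample by its label. Values within a library were whole multiples of a single step (100%, tolerance 0.001), which gave whole reads, 4445592 to 16930600 per library. A level of 3 reads (0.183 to 0.613 RPM) was taken as the detection limit.

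limma 3.58.1 with trend ran on log2(value + 1) for the 12319 genes kept by filterByExpr, with all 13 libraries and treatment as the factor. P-values were adjusted over all tested genes by Benjamini-Hochberg, and calls needed an adjusted p below 0.05 and a 2-fold change (the adjusted p alone for the difference of the IL-17A effects). Exact permutation tests cannot go below 0.0571 for 4 against 3 libraries or 0.1 for 3 against 3. Alternatives used edgeR 4.0.16, DESeq2 1.42.0 and voom on the recovered reads (R 4.3.3), library size scaling, other filters and pseudocounts, a block for the replicate number, fits of the compared groups alone, and fits without each library. Fits were tested on simulated data. Deviations of same-numbered libraries correlated above 0.1 in all 3 pairs of DOX+IL-17A and IL-17A (0.184, 0.226 and 0.373), so the numbers may pair these, and no call among the 10 genes changed there with the block.

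Genes were named by rule: the 10 members, up to 3 called genes of each list with the largest change with DOX, and *Mdm4*, *Ppm1d*, *Bax*, *Bbc3*, *Ddb2*, *Xpc*, *Zmat3*, *Phlda3* and *Sesn2*, of which *Ddb2* was not analysed here. *Cop1*, *Crebbp*, *Fbxw7*, *Tnfrsf10b*, *Rrm2b*, *Prkab1*, *Ddit4*, *Fdxr*, *Gadd45b*, *Btg3*, *Isg20*, *Isg20l2*, *Birc5*, *Aurka* and *Foxm1* were named after their values were seen. The members and lists were chosen with earlier results of these data known. The result of 1 listed gene is not reported here.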

Additional observations from a re-analysis of the deposited data

How the results depend on the processing

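The DOX calls of *Trp53*, *Aen* and *Plk2* held in every alternative except that of *Trp53* with the replicate block (limma, adjusted p = 0.055), a setting under which *Cdkn1a* was called with DOX at 1.04 (limma, adjusted p = 0.018). The lowest read counts among the 10 genes were those of *Btg2*, *Trp53* and *Sesn1*, which had 0, 9 and 11 reads in their lowest libraries. Same-numbered libraries correlated by 0.159 on average over 13 pairs (-0.185 to 0.515), with 8 above 0.1. Libraries of other numbers correlated by -0.0388 on average over 50 pairs (-0.585 to 0.486), with 15 above 0.1. Control and IL-17A replicate 3 gave the highest same-numbered value, but control and IL-17A replicate 5 the lowest. Outside DOX+IL-17A and IL-17A the numbers were not taken to pair, a choice that these correlations do not settle. Scaling by library size moved the median of all genes from 0.09 to 0.24 with DOX, from 0.04 to 0.20 with DOX+IL-17A against control and from 0.02 to 0.22 against IL-17A, and the share of calls that were up from 59.7% to 75.6%, 53.9% to 70.4% and 50% to 72.7%. The causes of the changes listed here were not tested.

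Of the 10 genes, DOX+IL-17A against control called 2 up and 0 down when only the groups compared were fitted, where *Trp53*, *Aen* and *Sesn1* had an adjusted p of 0.13, 0.086 and 0.10 in limma, and 0 down with the replicate block, where *Trp53* and *Sesn1* had 0.082 and 0.078. With voom *Trp53* had 0.086 there and 0.079 against IL-17A. DESeq2 called 1 up (*Cdkn1a*) for IL-17A against control. Leaving out 1 library gave 0 to 1 down against control, and 1 to 3 up and 0 to 1 down against IL-17A.

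Of all tested genes, 1589 were called for DOX+IL-17A against control and 599 with only the groups compared. For DOX+IL-17A against DOX 54 were called, against 93 by DESeq2, 85 without DOX replicate 1 and control replicate 1 (added after the data were seen), 35 by edgeR, 87 with only the groups compared, 23 with a pseudocount of 0.1 and 14 with the replicate block, and 1 to 88 without 1 library, the lowest without DOX+IL-17A replicate 3. For IL-17A against control 1 was called, against 13 by DESeq2, 0 by edgeR and voom, 0 with library size scaling, without a filter, with only the groups compared, a pseudocount of 0.1 or the replicate block, and 0 to 2 without 1 library. Calls for DOX+IL-17A against IL-17A ranged from 689 to 1589 without 1 library, and those for the difference of the IL-17A effects from 0 to 1, with 18 by DESeq2.

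Of the 50 other targets, 6 were called up with DOX without both libraries that stood apart, an alternative chosen after the data were seen. With DOX, 6 were called down by DESeq2 and 5 at the adjusted p alone. With DOX+IL-17A, fits of only the groups compared called 5 up and 0 down. There, 1 was called down with library size scaling, 2 with a pseudocount of 0.1 and 2 with the replicate block. Without 1 library the ranges were 6 to 13 up and 1 to 4 down with DOX, and 1 to 4 down with DOX+IL-17A.

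Log2 values that changed sign were all uncalled. Against DOX, DOX+IL-17A gave *Trp53* 0.13 by DESeq2, 0.11 by edgeR and -0.57 to 0.45 without 1 library, *Aen* -0.73 to 0.26, *Trp53inp1* -0.46 to 0.092, *Gadd45a* -0.12 to 0.40 and *Btg2* -0.46 to 0.035 without 1 library, and *Btg2* 0.042 with the replicate block. Against IL-17A it gave *Cdkn1a* 0.065 with library size scaling and -0.45 to 0.11 without 1 library, and *Mdm2* -0.28 to 0.33. Against control, without both libraries that stood apart, *Mdm2* was -0.034 with DOX+IL-17A and -0.10 with IL-17A, *Ccng1* -0.084 with DOX, and *Bax* 0.091 and *Xpc* 0.00418 with DOX+IL-17A. The replicate block gave *Mdm2* -0.012 with IL-17A and *Bbc3* 0.10 with DOX, and library size scaling gave *Bbc3* 0.074 with DOX and *Xpc* 0.019 with DOX+IL-17A. *Aen* with IL-17A was -0.19 by DESeq2, -0.13 by edgeR and -0.015 with library size scaling. Without 1 library, *Ccng1* was -0.014 to 0.38, *Trp53inp1* -0.52 to 0.031, *Bax* -0.022 to 0.72 and *Bbc3* -0.48 to 0.21 with DOX, *Mdm2* -0.12 to 0.49, *Btg2* -0.14 to 0.38, *Bax* -0.65 to 0.37, *Bbc3* -0.68 to 0.0099 and *Xpc* -0.36 to 0.0079 with DOX+IL-17A, and *Mdm2* -0.10 to 0.37, *Aen* -0.26 to 0.57 and *Plk2* -0.28 to 0.55 with IL-17A.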
